A study of Mus musculus with 9 samples.

Results

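RNA polymerases and their general transcription factors were followed in N2A cells, a mouse neuroblastoma line, after depletion of EXOSC3 or DDX1. EXOSC3 is a structural subunit of the RNA exosome, which degrades and trims RNA from the 3′ end, and DDX1 is a putative RNA helicase of the DEAD-box family. The genes were taken by symbol, as every gene of both tables whose name begins with Polr1, Polr2 or Polr3 and a further letter, or with Gtf2 or Gtf3, and this gave 51 of 24318 genes. They comprise 3 genes of polymerase I, 2 shared by polymerases I and III, 5 shared by all polymerases, 8 of polymerase II, 10 of polymerase III, 13 of the general factors of polymerase II, 3 of the TFII-I family and 7 of the general factors of polymerase III. The cells were wild type by genotype label and were transfected with scramble siRNA (siScramble), EXOSC3 siRNA (siEXOSC3) or DDX1 siRNA (siDDX1), with 3 libraries per group and 9 in all. All groups received a transfection reagent and an siRNA, although the treatment label reads untreated. N2A is a single tumor-derived line, and an siRNA lowers its target without removing it. Whole-culture RNA was depleted of rRNA and sequenced without strand information. Expression is given as FPKM, the fragments of a gene scaled by its transcript length and by a measure of library depth. Each ± value on FPKM is an SD over 3 libraries.

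Polymerase I makes the precursor of the large rRNAs in the nucleolus, polymerase II makes mRNA and many non-coding RNAs, and polymerase III makes tRNA, 5S rRNA and other short RNAs. Each polymerase has its own pair of large subunits, which form the catalytic center, and several small subunits are common to more than 1 of them. None finds its promoters alone: TFIIA, TFIIB, TFIIE, TFIIF and TFIIH assemble with polymerase II. At many polymerase III genes TFIIIC, joined by TFIIIA at the 5S rRNA genes, recruits TFIIIB and the polymerase.

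Both siRNAs lowered their own target. Exosc3 was at 6.84, 7.68 and 6.01 FPKM in siEXOSC3 against 45.8, 43.8 and 42.7 FPKM in scramble, a log2 fold change of -2.53 (limma adjusted p = 1.11e-05). Ddx1 was at 28.0, 28.7 and 34.8 FPKM in siDDX1 against 130, 126 and 119 FPKM, a log2 fold change of -2.01 (limma adjusted p = 9.53e-05). Over all genes tested, the correlation between libraries of a group was 0.995 at the lowest in scramble, 0.983 in siEXOSC3 and 0.986 in siDDX1. Steps in the low values put the libraries at 0.827 to 1.20 times the depth of scramble replicate 1, but only 18.6 to 22.6% of the low genes used lay at the step, and the absolute depth is unknown. Of 11 markers of sympathetic neuroblasts and neurons, 10 reached a mean of 1 FPKM, while Th, the first enzyme of catecholamine synthesis, was at 0.179 ± 0.0403 FPKM in scramble. Summed over the list, they spanned 467 to 548 FPKM in siEXOSC3 against 362 to 428 FPKM in scramble, with 6 of the 10 tested past the threshold upward, and 345 to 419 against 359 to 423 FPKM in siDDX1, with none past it in limma and 2 at an unadjusted p under 0.05 (1 up, 1 down). Markers of epithelium, fibroblasts and astrocytes were below 1 FPKM in every library. Of the 2 leukocyte markers, Ptprc was at 0 in scramble and Cd68 was at 1.83, 0.670 and 1.04 FPKM there. Of the 2 endothelial markers, Pecam1 was at 4.13 ± 0.343 FPKM in scramble and rose in siEXOSC3, whereas Cdh5 was near 0. The part of these marker levels in the results below was not tested. In RNA from whole cultures, fewer cells of a type and less RNA per cell cannot be told apart.

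Of the 51 genes, 49 were tested against scramble after EXOSC3 depletion and 50 after DDX1 depletion, having a mean of at least 1 FPKM over the 6 libraries compared. Gtf2a1l, a TFIIA-like gene best known from the germ line, was below that mean in both tables, and Gtf2ird2 in the table of siEXOSC3. Past the threshold in both knockdowns were 3 genes: Polr3f and Gtf3c4 fell and Polr3gl rose. They are 6.12% of the 49 genes tested in both, and 6.2% of all 11054 genes tested in both passed in both, so this share is at the background. By direction, 1 rose and 2 fell (2.04% and 4.08%), beside 3.42% and 2.55% of all genes. The comparisons use the same scramble libraries, so they are not independent of each other. Polr3f encodes a polymerase III subunit that contacts the initiation factors, Gtf3c4 a subunit of TFIIIC, and Polr3gl one of 2 alternative forms of another polymerase III subunit. In mm9, Polr3f lies at chr2:144353454-144367731 on the plus strand, Gtf3c4 at chr2:28677819-28695880 on the minus strand and Polr3gl at chr3:96381795-96398104 on the minus strand. The 250 bases before the RefSeq start of each are shown because these genes moved in both comparisons. They are from build GRCm38.p6, 5′ to 3′ on the strand of the gene, at chr2:144527495-144527744 (plus), chr2:28840361-28840610 (minus) and chr3:96594182-96594431 (minus), and capitals mark matches to the motifs described next.
Polr3f: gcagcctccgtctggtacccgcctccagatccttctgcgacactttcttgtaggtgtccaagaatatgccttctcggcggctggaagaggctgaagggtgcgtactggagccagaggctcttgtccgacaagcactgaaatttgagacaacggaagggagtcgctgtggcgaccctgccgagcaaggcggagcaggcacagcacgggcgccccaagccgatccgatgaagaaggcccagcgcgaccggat
Gtf3c4: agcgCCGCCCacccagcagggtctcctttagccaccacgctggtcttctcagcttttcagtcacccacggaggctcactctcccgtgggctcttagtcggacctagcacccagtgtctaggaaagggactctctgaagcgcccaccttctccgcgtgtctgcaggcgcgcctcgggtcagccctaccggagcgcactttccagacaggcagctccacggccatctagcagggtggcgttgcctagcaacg
Polr3gl: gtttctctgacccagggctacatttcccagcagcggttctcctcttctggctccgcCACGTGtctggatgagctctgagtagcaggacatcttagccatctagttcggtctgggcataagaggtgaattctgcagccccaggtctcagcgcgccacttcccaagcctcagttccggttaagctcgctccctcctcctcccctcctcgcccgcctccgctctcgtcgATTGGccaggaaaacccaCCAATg

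Each window was searched on both strands for the E-box CACGTG, the CCAAT box CCAAT, the GC box GGGCGG and the ETS core CCGGAAG, and no 2 of these words overlap in the windows shown. The Polr3gl window held 1 E-box and 2 CCAAT boxes, the Gtf3c4 window held 1 GC box, and the Polr3f window held none of the motifs. The 3 genes thus shared no match. RefSeq windows were found for 44 of the 51 genes, 49 windows in all. A gene with more than 1 window is counted once per window, here and among genes tested (10979 windows for 8595 genes). The E-box was in 20.4% of these windows, against 6.02% of all 32851 windows and 8.38% of the windows of genes tested. ETS cores were in 26.5%, against 6.91% and 14.3%. GC boxes were in 51.0%, against 32.7% and 58.9%, and CCAAT boxes in 26.5%, against 33.8% and 35.7%. Median GC content of the windows was 60.8%, against 52.4% for all windows and 60% for those of genes tested. These are matches of letters and say nothing of whether a factor bound.

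In scramble, the genes differed widely in level. Polr2f, a small subunit common to all polymerases, was the highest at 273 ± 21.3 FPKM, and Gtf2a1l was the lowest at 0.0106 ± 0.0183 FPKM, with 2 of its 3 scramble libraries at 0. The median was 34.4 FPKM for polymerase I, 91.3 for the subunits shared by I and III, 92.4 for those shared by all, 67.9 for polymerase II and 14.9 for polymerase III. General factors followed the same order, with medians of 39.6 FPKM for polymerase II and 20.8 FPKM for polymerase III, and the TFII-I family had a median of 11.4 FPKM. Among the 10 Polr3 genes, levels ran from Polr3gl at 7.13 ± 0.854 FPKM to Polr3d at 26.7 ± 1.03 FPKM. All of these lay below the lowest of the polymerase II genes, Polr2i, at 36.0 ± 1.06 FPKM. Crcp, a polymerase III subunit with another kind of name, was higher at 45.7 ± 1.94 FPKM. Polr1c and Polr1d, which pair in the assembly platform of polymerases I and III, were at 91.9 ± 7.19 and 90.7 ± 4.31 FPKM and did not differ beyond their spread. Polr1e, part of the polymerase I subcomplex that stabilizes initiation, was far lower at 6.35 ± 0.670 FPKM, against 45.2 ± 0.998 FPKM for Polr1a. Polr2l, at 15.7 ± 1.66 FPKM, was the only subunit common to all polymerases below 50 FPKM.

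**Figure D1:**
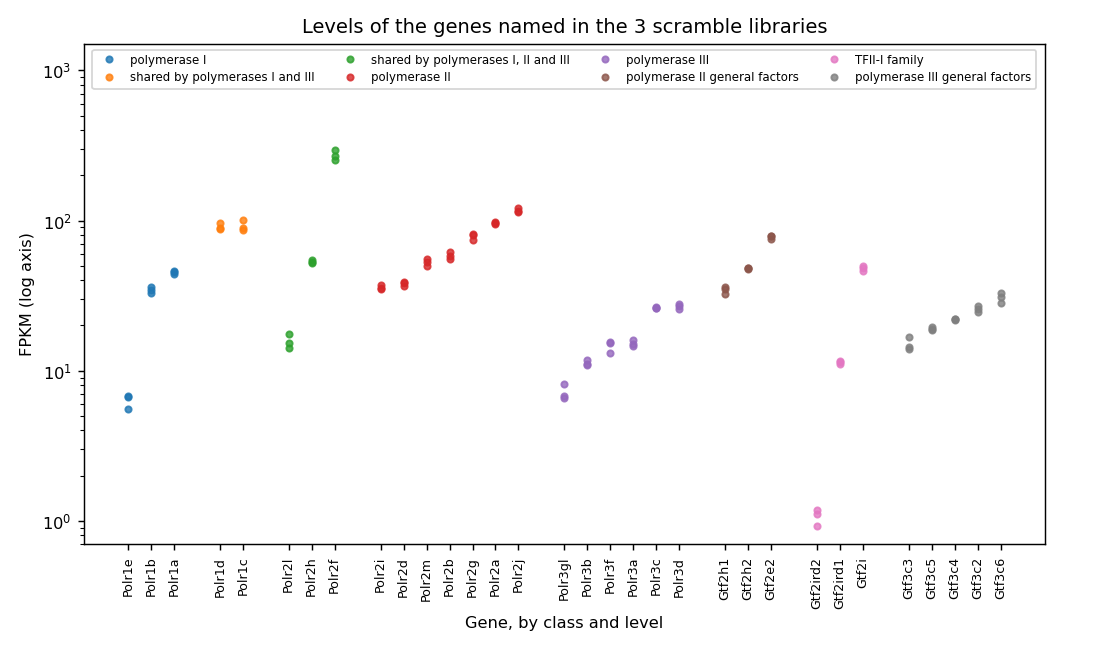
FPKM in each of the 3 scramble libraries (vertical log axis) for the genes named by the rule and with a mean of at least 1 FPKM, grouped by class along the horizontal axis and ordered by level within a class. The Polr3 genes, from 7.13 to 26.7 FPKM on average, lie below those of polymerase II, from 36.0 to 117 FPKM.

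EXOSC3 depletion was accompanied by lower levels of many of these genes. Of the 49 tested, 16 fell (32.7%), 3 rose (6.12%) and 30 did not pass the threshold, against a background of 15.7% called down and 16.7% called up among the 11242 genes tested. Independently of the call, 40 were lower on average than in scramble and 9 were higher. All 3 siEXOSC3 values lay below all 3 scramble values in 23 genes (46.9%) and above them in 4 (8.16%), against backgrounds of 25.9% and 23.8%. The median log2 fold change was -0.17, beside -0.01 for all genes tested, and the range ran from -0.63 for Polr3f to 0.58 for Polr3gl. Split by name, 11 of 28 Polr genes fell and 1 rose, and 5 of 21 Gtf genes fell and 2 rose. The number of falls varied with the library left out, and so did the calls over all genes (3644 with every library). It was 22 without siEXOSC3 replicate 2, 11 without replicate 1 and 14 without replicate 3, beside 4887, 2042 and 3231 genes in all. When scramble replicates 1, 2 and 3 were left out in turn it was 6, 11 and 8, beside 1610, 2256 and 1992 in all. The 3 rises became 0 without siEXOSC3 replicate 1 or scramble replicate 1 or 3, and 1 without scramble replicate 2. The falls that passed under every alternative at the same threshold were those of 5 genes, Gtf2h1, Gtf3c4, Gtf3c5, Polr2f and Polr3f.

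After DDX1 depletion, falls and rises were equal in number. Of the 50 genes tested, 3 rose (6%), 3 fell (6%) and 44 did not pass, against a background of 5.61% called up and 5.03% called down among 11104 genes. These shares are near the background. With 24 genes lower and 26 higher, the median log2 fold change was 0.0025, beside -0.00059 for all genes tested. All 3 siDDX1 values were above scramble in 10 genes (20%) and below in 7 (14%), against backgrounds of 17% and 17.8%. With each library centered on its median, 4 genes rose and 2 fell. These counts varied with the library left out, and so did the calls over all genes (1182 with every library). Without siDDX1 replicate 3, 6 genes rose and 8 fell, beside 3524 of all 11108 genes tested. No gene rose or fell without scramble replicate 1 or 3, beside 158 and 160 in all. Without scramble replicate 2, 1 rose and 1 fell, beside 520 in all. Leaving out siDDX1 replicate 1 or 2 gave 1 rise and no fall, beside 449 and 349 in all. At an unadjusted limma p under 0.05, with every library, 7 genes were higher (14%) and 7 lower (14%), beside 15.1% and 15% of all genes tested, so these shares too are near the background. In siEXOSC3 the same threshold gave 3 higher (6.12%) and 21 lower (42.9%), beside 22% and 23.4% of all genes tested. Of the 49 genes tested in both, 3 (6.12%) lay below scramble in every siEXOSC3 library and above it in every siDDX1 library, and none lay the other way round, beside 1.29% and 1.51% of all genes tested in both.

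**Figure D2:**
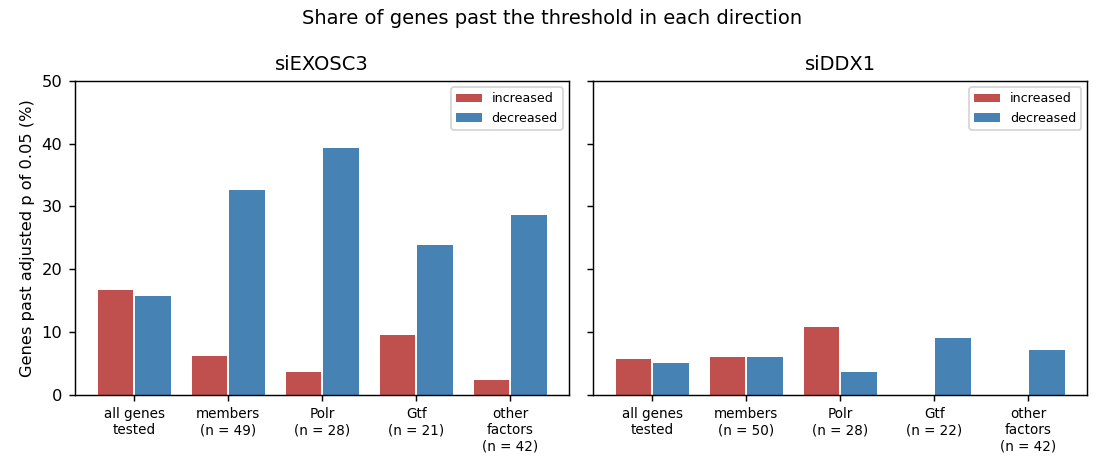
Percent of genes past the limma adjusted p threshold of 0.05 (vertical axis) that increased or decreased, for all genes tested, the polymerase and general factor genes tested, their Polr and Gtf subsets and the list of other transcription factors and subunits. In siEXOSC3 the decreases reach 32.7% of these genes and 15.7% of all genes, and in siDDX1 they are 6% and 5.03%.

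**Figure D3:**
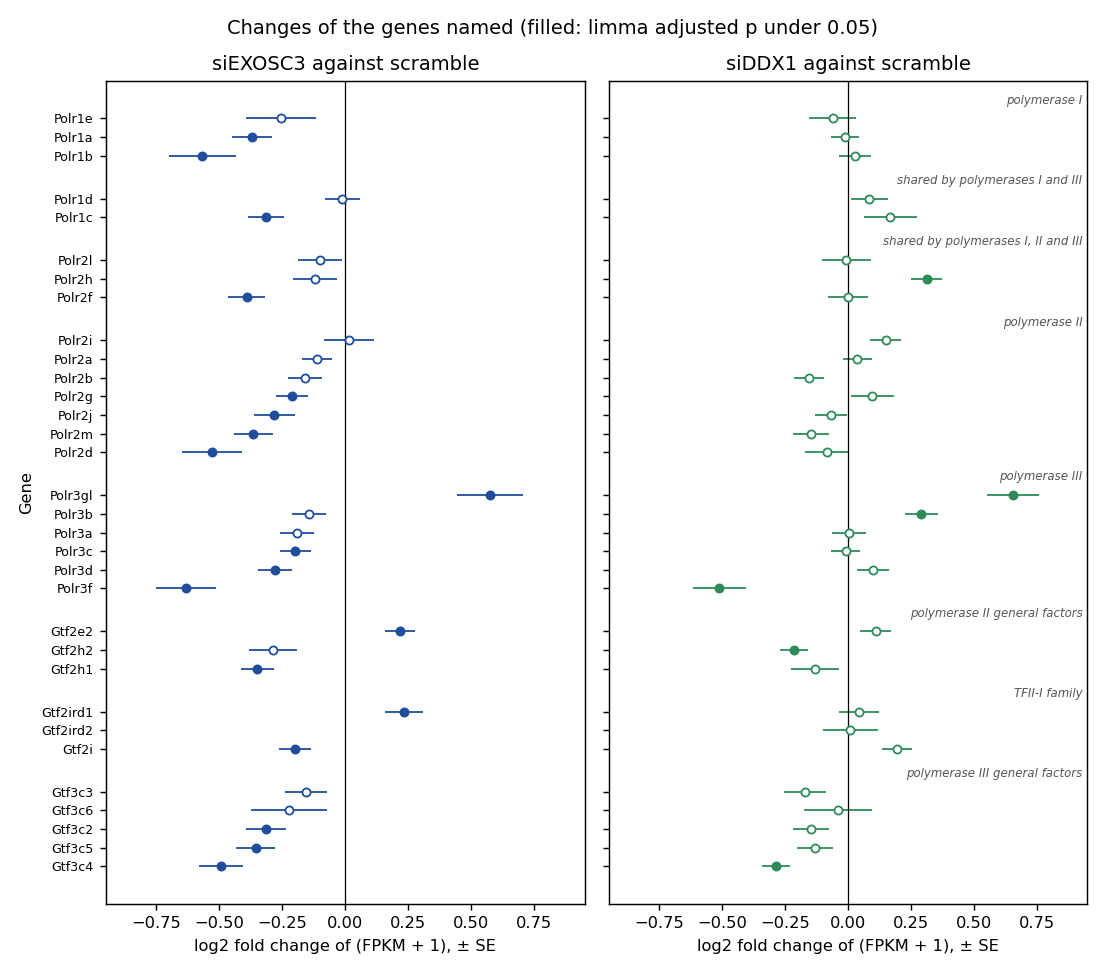
Log2 fold change of (FPKM + 1) ± SE from limma (horizontal axis) for each tested gene named by the rule, which includes all that passed, in siEXOSC3 (left) and siDDX1 (right) against scramble, by class. Filled points passed an adjusted p of 0.05, and in the left panel they lie mostly to the left of 0, with Polr3gl the farthest to the right in both panels.

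Of the 3 polymerase I genes, 2 fell in siEXOSC3, against 15.7% of all genes tested called down, and these encode its catalytic pair. Polr1a, the largest subunit, was at 34.5, 38.5 and 31.6 FPKM in siEXOSC3 and at 46.2, 44.2 and 45.3 FPKM in scramble. It fell by 0.37 on the log2 scale (SE 0.0800, limma adjusted p = 0.0111). Polr1b, the second largest subunit, was at 23.1, 28.1 and 18.3 FPKM against 35.8, 33.1 and 34.3 FPKM. Every siEXOSC3 value of both genes lay below every scramble value, with replicate 2 nearest to scramble and replicate 3 farthest. The log2 fold change of Polr1b was -0.57 (SE 0.133, limma adjusted p = 0.0146). Polr1e was at 5.19, 6.35 and 4.09 FPKM against 6.65, 5.58 and 6.82 FPKM, so its groups overlapped (log2 fold change -0.25, limma adjusted p = 0.187). It rested on single libraries, being -0.38 without siEXOSC3 replicate 2 (limma adjusted p = 0.0301) and -0.12 without replicate 3 (limma adjusted p = 0.461). In siDDX1 none of the 3 passed with limma, and 0 did at an unadjusted p under 0.05. Polr1a was at 45.6, 43.4 and 44.2 FPKM against 45.8, 43.8 and 44.7 FPKM in the scramble columns of that table, and Polr1b was at 36.2, 33.1 and 35.0 FPKM against 35.6, 32.8 and 33.9 FPKM. Their log2 fold changes were -0.01 (SE 0.0545) and 0.03 (SE 0.0624), and their groups overlapped. The call of Polr1a was lost without scramble replicate 1 (limma adjusted p = 0.0531), and that of Polr1b without scramble replicate 1 or 3, with adjusted p up to 0.0598.

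**Figure D4:**
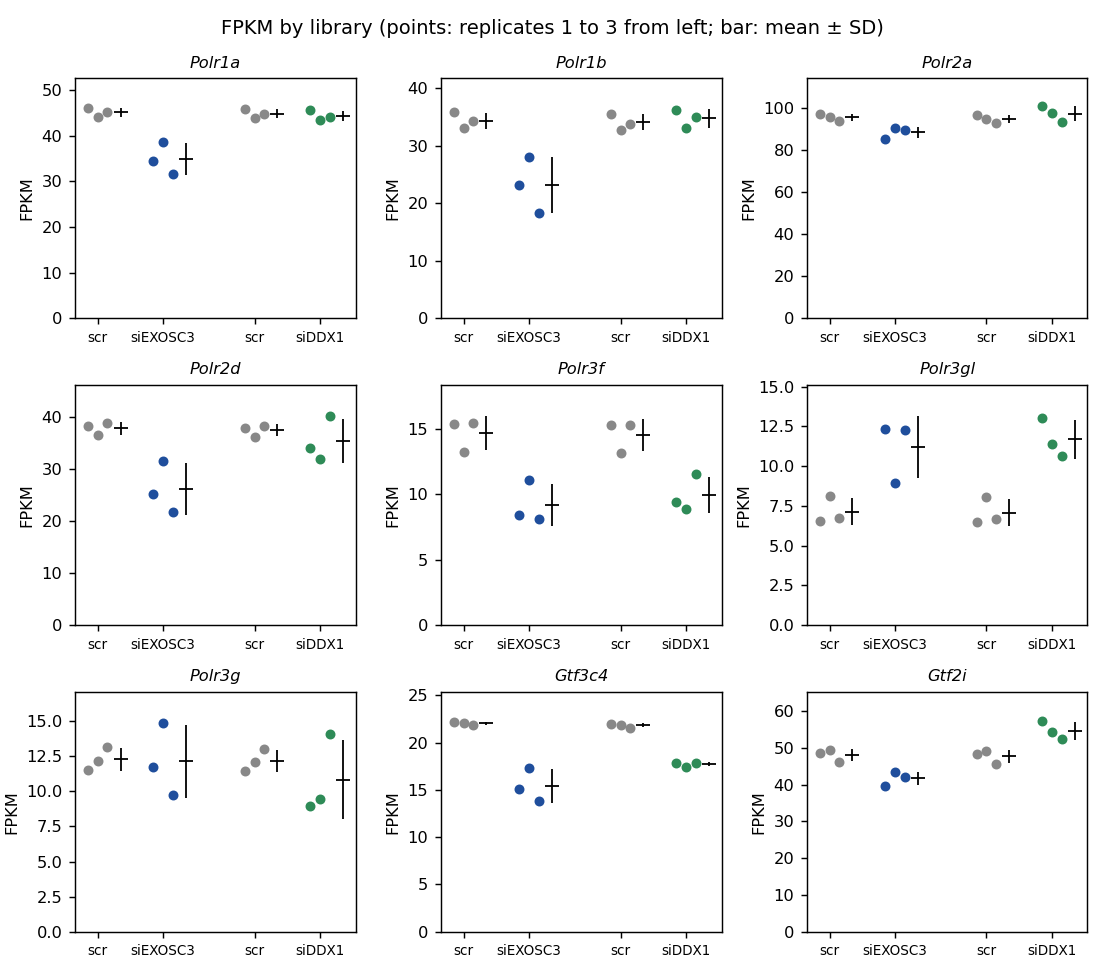
FPKM (vertical axes, from 0) of 9 genes in each library, with scramble in gray, siEXOSC3 in blue and siDDX1 in green, and the mean ± SD of 3 libraries as a cross. Each knockdown stands beside the scramble values of its own table. Polr1a, Polr1b and Polr2d lie below scramble in siEXOSC3 and overlap it in siDDX1, Polr3f and Gtf3c4 lie below it in both knockdowns, and Polr3gl lies above it in both.

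Of the 2 subunits that polymerases I and III share, 1 fell in siEXOSC3, against 15.7% of all genes tested, and this was Polr1c. It was at 76.4, 71.8 and 72.4 FPKM against 86.8, 100.1 and 88.7 FPKM in scramble, with no overlap (log2 fold change -0.31, SE 0.0729, limma adjusted p = 0.0142), and the call was lost without scramble replicate 2 (adjusted p = 0.0527). Its partner Polr1d was at 91.6, 94.3 and 84.2 FPKM against 95.6, 89.4 and 87.3 FPKM, and these groups overlapped (log2 fold change -0.01, SE 0.0699). In siDDX1 both were higher on average without passing, Polr1c at 113, 108 and 87.2 FPKM against 86.2, 99.3 and 87.6 FPKM. Replicate 3 of siDDX1 lay within the scramble range, and the log2 fold change of Polr1c was 0.17 (limma adjusted p = 0.313). It ranged from 0.09 without siDDX1 replicate 1 to 0.28 without siDDX1 replicate 3, and only the latter fit passed (limma adjusted p = 0.0165), a fit in which calls over all genes rose from 1182 to 3524.

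Of the 5 subunits common to all polymerases, 1 fell in siEXOSC3 (20%) and 1 rose in siDDX1, against 15.7% of all genes tested called down and 5.61% called up. Each of these counts is a single gene. Polr2f was at 210, 206 and 206 FPKM against 295, 253 and 271 FPKM, a log2 fold change of -0.39 (SE 0.0731, limma adjusted p = 0.00670). The siEXOSC3 libraries agreed closely while the scramble libraries were spread over a wider range above them. In siDDX1 the same gene was at 287, 270 and 254 FPKM against 293, 251 and 267 FPKM, and the groups overlapped (log2 fold change -0.00012, SE 0.0807). Polr2h passed in siDDX1 and not in siEXOSC3. It was at 53.6, 51.2 and 42.8 FPKM in siEXOSC3 against 53.3, 54.6 and 52.1 FPKM, with overlap, and at 70.1, 64.3 and 63.2 FPKM in siDDX1 against 52.9, 54.2 and 51.4 FPKM, with none. It rose by a log2 fold change of 0.31 in siDDX1 (SE 0.0615, limma adjusted p = 0.0204), a call lost in 5 of the 6 fits that leave out a library, with adjusted p up to 0.0954. Polr2h overlaps Clcn2 on the opposite strand, which reads without strand information cannot separate, and Clcn2 was at 2.48 ± 0.402 FPKM in siDDX1 against 2.81 ± 0.0577 FPKM. Polr2l was at 14.3, 15.4 and 14.0 FPKM in siEXOSC3 against 15.4, 14.3 and 17.5 FPKM and passed in neither table. Polr2e and Polr2k also passed in neither.

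Of the 8 polymerase II genes, 4 fell in siEXOSC3 (50%, against 15.7% of all genes tested), all of them encoding small or accessory subunits, while the catalytic pair did not pass. Polr2a, the largest subunit, whose C-terminal repeats carry the phosphorylation marks of the transcription cycle, was at 85.3, 90.4 and 89.9 FPKM against 97.5, 95.9 and 94.1 FPKM. Polr2b, the second largest, was at 51.9, 54.3 and 49.9 FPKM against 61.6, 55.6 and 57.7 FPKM. Both were below scramble in every siEXOSC3 library, by log2 fold changes of -0.11 (SE 0.0591, limma adjusted p = 0.169) and -0.16 (SE 0.0672, limma adjusted p = 0.0966). Polr2d, a subunit of the detachable stalk that it forms with Polr2g, was at 25.2, 31.5 and 21.8 FPKM against 38.1, 36.4 and 38.7 FPKM. It showed the largest fall of the class, with a log2 fold change of -0.53 (SE 0.119, limma adjusted p = 0.0129). Polr2g, the other stalk subunit, was at 70.2, 66.9 and 65.7 FPKM against 80.1, 81.0 and 74.4 FPKM (log2 fold change -0.21, SE 0.0641, limma adjusted p = 0.0362). Both stalk genes were thus below scramble in every library. Polr2m, which associates with a form of polymerase II that needs Mediator, was at 40.5, 44.3 and 37.4 FPKM against 55.4, 52.8 and 49.8 FPKM (log2 fold change -0.36, SE 0.0791, limma adjusted p = 0.0111). Polr2j was at 92.9, 107 and 88.8 FPKM against 113, 122 and 116 FPKM (log2 fold change -0.28, SE 0.0821, limma adjusted p = 0.0316). Leaving out a library lost the Polr2g call in 5 of 6 fits, with adjusted p up to 0.136, and median centering, no trend and the replicate block lost it too. The Polr2j call was lost in 5 of 6 fits and without a filter on low FPKM, with adjusted p up to 0.108. Polr2d was lost without scramble replicate 1 or 3 and Polr2m without scramble replicate 1, with adjusted p up to 0.0539 and 0.0566. The neighbor that overlaps Polr2j on the other strand, Lrwd1, was at 10.6 ± 0.866 against 10.6 ± 0.766 FPKM. Polr2i, the lowest of the class, was at 41.7, 36.9 and 31.1 FPKM against 35.1, 37.1 and 35.8 FPKM and overlapped scramble.

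In siDDX1 none of the 8 polymerase II genes passed with limma. At an unadjusted p under 0.05, 1 was higher (Polr2i) and 1 was lower (Polr2b). Polr2a was at 101, 97.8 and 93.7 FPKM against 96.8, 95.2 and 93.0 FPKM, with overlap (log2 fold change 0.04, SE 0.0566). Polr2b and Polr2m were below scramble in every siDDX1 library as well. The former was at 51.2, 53.0 and 51.1 FPKM against 61.1, 55.2 and 57.0 FPKM (log2 fold change -0.15, limma adjusted p = 0.129), and the latter at 48.8, 48.9 and 43.4 FPKM against 54.9, 52.4 and 49.2 FPKM (log2 fold change -0.15, limma adjusted p = 0.201). Polr2b overlaps Igfbp7 on the opposite strand, and Igfbp7 fell in siDDX1, from 21.4, 24.2 and 23.2 FPKM to 16.0, 15.9 and 19.2 FPKM (log2 fold change -0.41, limma adjusted p = 0.0255). The part of shared reads in the Polr2b values was not tested. Polr2d was at 34.0, 31.9 and 40.1 FPKM against 37.8, 36.1 and 38.3 FPKM, and replicate 3 lay above scramble while the others lay below.

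Polymerase III held both the deepest fall and the largest rise. In siEXOSC3, 3 of its 10 genes fell and 1 rose, and in siDDX1, 1 fell and 2 rose. Among all genes tested, 15.7% fell and 16.7% rose in siEXOSC3, so that the single rise is below the background share, and 5.03% fell and 5.61% rose in siDDX1. Polr3f was at 8.40, 11.0 and 8.06 FPKM in siEXOSC3 against 15.4, 13.2 and 15.4 FPKM, and at 9.42, 8.88 and 11.5 FPKM in siDDX1 against 15.2, 13.1 and 15.3 FPKM. All knockdown values lay below all scramble values in both. The log2 fold changes were -0.63 (SE 0.119, limma adjusted p = 0.00687) and -0.51 (SE 0.105, limma adjusted p = 0.0229). Leaving out a library kept the first call in every case, with adjusted p up to 0.0357. The second was lost without scramble replicate 1 or 3 or siDDX1 replicate 1 or 2, with adjusted p up to 0.107, and without a filter on low FPKM. Polr3c, which forms a subcomplex with Polr3f, and Polr3d, a subunit linked to elongation and termination, also fell in siEXOSC3. Polr3c was at 22.9, 22.0 and 23.4 FPKM against 26.1, 26.4 and 26.2 FPKM (log2 fold change -0.20, SE 0.0606, limma adjusted p = 0.0374). Polr3d was at 21.4, 23.0 and 21.2 FPKM against 26.8, 25.6 and 27.7 FPKM (log2 fold change -0.28, SE 0.0671, limma adjusted p = 0.0163). Of the 6 fits that leave out a library, the Polr3c call was lost in 5, with adjusted p up to 0.120, and also with quantile normalization, median centering, no trend or the replicate block. The Polr3d call was lost in 3 of them and with the replicate block, with adjusted p up to 0.0701. Neither passed in siDDX1, where Polr3c overlapped scramble and Polr3d was above it in every library at 27.6, 27.8 and 30.0 FPKM against 26.6, 25.4 and 27.4 FPKM. Polr3c overlaps Rnf115 on the opposite strand, which was at 28.0 ± 2.05 FPKM in siEXOSC3 against 31.2 ± 2.15 FPKM.

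Of the catalytic pair of polymerase III, neither gene passed in siEXOSC3 and Polr3b passed in siDDX1. Polr3a, the largest subunit, was at 13.0, 13.1 and 13.4 FPKM in siEXOSC3 against 16.0, 14.5 and 15.0 FPKM, and at 14.9, 15.5 and 14.7 FPKM in siDDX1 against 15.9, 14.4 and 14.8 FPKM. It was below scramble in all siEXOSC3 libraries without passing (log2 fold change -0.19, limma adjusted p = 0.0602) and overlapped scramble in siDDX1 (log2 fold change 0.0033). Polr3b, the second largest subunit, was at 10.1, 9.92 and 10.3 FPKM in siEXOSC3 against 11.1, 11.8 and 10.9 FPKM (log2 fold change -0.14, limma adjusted p = 0.138). In siDDX1 it was at 13.9, 14.0 and 13.8 FPKM against 11.0, 11.7 and 10.8 FPKM, and it rose by a log2 fold change of 0.29 (SE 0.0650, limma adjusted p = 0.0293). That call was lost in 5 of the 6 fits that leave out a library, with adjusted p up to 0.132.

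Polr3g and Polr3gl encode alternative versions of the same polymerase III subunit, of which Polr3g is known for its high expression in pluripotent and tumor cells and Polr3gl is broadly expressed. Polr3gl was at 12.4, 8.94 and 12.3 FPKM in siEXOSC3 against 6.54, 8.11 and 6.74 FPKM, and at 13.0, 11.4 and 10.6 FPKM in siDDX1 against 6.49, 8.05 and 6.66 FPKM. It lay above scramble in every library of both knockdowns, with siEXOSC3 replicate 2 close to scramble replicate 2. The log2 fold changes were 0.58 (SE 0.131, limma adjusted p = 0.0134) and 0.65 (SE 0.104, limma adjusted p = 0.0107), the largest rises among these genes. Polr3g was at 11.7, 14.9 and 9.77 FPKM in siEXOSC3 and at 8.96, 9.43 and 14.1 FPKM in siDDX1, overlapping scramble in both, with 11.5, 12.2 and 13.2 FPKM in the siEXOSC3 table. Polr3gl made up 51.3, 37.5 and 55.6% of their summed FPKM in siEXOSC3 and 59.3, 54.7 and 43.0% in siDDX1, against 36.2, 40.0 and 33.9% in scramble. The share overlapped scramble in siEXOSC3 (two-sided exact permutation p = 0.2, n = 3 and 3) and not in siDDX1 (p = 0.1, the smallest that this exact test can give). Their sum was 23.3 ± 1.13 against 19.4 ± 1.19 FPKM in siEXOSC3 and 22.5 ± 1.98 against 19.2 ± 1.17 FPKM in siDDX1, each without overlap and with an exact permutation p of 0.1, which the design cannot go below. The Polr3gl rise was lost in siEXOSC3 without siEXOSC3 replicate 1 or scramble replicate 1 or 3, with adjusted p up to 0.0586, and in siDDX1 without scramble replicate 1 or 3, with adjusted p up to 0.0658. Polr3gl overlaps Gm16253 on the opposite strand, which reads without strand information cannot separate. The part of shared reads in its values was not tested.

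Among the general factors of polymerase II, 1 of 12 tested rose and 1 fell in siEXOSC3 (8.33% each), and 1 fell in siDDX1 (8.33%). These shares are below the 16.7% and 15.7% of all genes tested in siEXOSC3, and a single gene in siDDX1 stands beside 5.03%. Gtf2e2, the beta subunit of TFIIE and the highest of the class, was at 88.5, 89.9 and 93.1 FPKM in siEXOSC3 against 79.0, 79.2 and 75.2 FPKM, and it rose (log2 fold change 0.22, SE 0.0597, limma adjusted p = 0.0267). That call was lost in 4 of the 6 fits that leave out a library and with the replicate block, with adjusted p up to 0.0932. It was also above scramble in every siDDX1 library, at 82.6, 87.8 and 79.6 FPKM against 78.4, 78.6 and 74.3 FPKM, without passing (log2 fold change 0.11, limma adjusted p = 0.260). Its partner Gtf2e1 passed in neither. Gtf2h1 and Gtf2h2 encode subunits of TFIIH, which opens promoter DNA and also acts in nucleotide excision repair. Gtf2h1 was at 27.5, 26.2 and 26.9 FPKM in siEXOSC3 against 36.0, 35.2 and 32.3 FPKM (log2 fold change -0.35, SE 0.0669, limma adjusted p = 0.00725), and at 32.6, 34.4 and 26.8 FPKM in siDDX1, where it overlapped scramble. Gtf2h2 was at 43.0, 41.8 and 33.3 FPKM in siEXOSC3 against 48.1, 47.5 and 48.3 FPKM, and at 39.0, 41.9 and 41.5 FPKM in siDDX1 against 47.7, 47.1 and 47.8 FPKM. It lay below scramble in every library of both, with narrow scramble groups. It fell in siDDX1 (log2 fold change -0.21, SE 0.0557, limma adjusted p = 0.0460) and came short of the threshold in siEXOSC3 (log2 fold change -0.29, SE 0.0966, limma adjusted p = 0.0510), where it passed with a minimum mean of 5 FPKM (adjusted p = 0.0496) or without siEXOSC3 replicate 2 (adjusted p = 0.0264). Without siEXOSC3 replicate 3 the siEXOSC3 log2 fold change was -0.17, and over all alternatives the adjusted p reached 0.136. The siDDX1 call was lost in 5 of the 6 fits that leave out a library, under median centering and with no trend, with adjusted p up to 0.162. Gtf2a1l was at 0.0856, 0 and 0.0404 FPKM in siEXOSC3 and at 0, 0 and 0.0290 FPKM in siDDX1.

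The TFII-I family, named with the general factors but acting as signal-dependent and chromatin-linked regulators, occupies neighboring positions on chromosome 5. Gtf2i was at 39.8, 43.4 and 42.0 FPKM in siEXOSC3 against 48.6, 49.5 and 46.2 FPKM and fell (log2 fold change -0.20, SE 0.0644, limma adjusted p = 0.0436). Its neighbor Gtf2ird1 was at 12.8, 13.1 and 14.7 FPKM against 11.0, 11.5 and 11.6 FPKM and rose (log2 fold change 0.23, SE 0.0756, limma adjusted p = 0.0455). Neither group overlapped scramble, and both calls were close to the threshold and were lost in 4 and 5 of the 6 fits that leave out a library and with the replicate block or no trend, that of Gtf2i also under median centering and that of Gtf2ird1 without a filter on low FPKM, with adjusted p up to 0.156 and 0.159. In siDDX1, Gtf2i was at 57.3, 54.3 and 52.4 FPKM against 48.2, 49.1 and 45.7 FPKM, above scramble in every library without passing (log2 fold change 0.19, SE 0.0610, limma adjusted p = 0.0770), and of its alternatives the fit without siDDX1 replicate 3 passed (adjusted p = 0.0211). Gtf2ird2 was at 0.609, 1.09 and 0.498 FPKM in siEXOSC3 and 1.10, 0.923 and 1.19 FPKM in siDDX1, against 1.11, 0.923 and 1.17 FPKM in the scramble columns of the first table.

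Among the general factors of polymerase III, 3 of 7 fell in siEXOSC3 and 1 in siDDX1, against 15.7% and 5.03% of all genes tested called down. Of the 7, 6 encode subunits of TFIIIC, the complex that reads the internal promoters of tRNA genes, and the fall in siDDX1 is that of a single gene. Gtf3c4 was at 15.1, 17.3 and 13.8 FPKM in siEXOSC3 against 22.2, 22.1 and 21.8 FPKM, and at 17.8, 17.5 and 17.9 FPKM in siDDX1 against 22.0, 21.9 and 21.6 FPKM. Scramble and siDDX1 libraries were tight and well separated. The log2 fold changes were -0.49 (SE 0.0860, limma adjusted p = 0.00529) and -0.29 (SE 0.0566, limma adjusted p = 0.0203). The siDDX1 call was lost in 5 of the 6 fits that leave out a library, with adjusted p up to 0.102, while the siEXOSC3 call was kept in all of them. Gtf3c5 was at 14.0, 16.1 and 13.9 FPKM in siEXOSC3 against 18.5, 19.4 and 19.1 FPKM (log2 fold change -0.36, SE 0.0765, limma adjusted p = 0.0107), and at 17.2, 15.8 and 18.4 FPKM in siDDX1, where it overlapped scramble. Gtf3c2 was at 20.2, 22.4 and 18.8 FPKM in siEXOSC3 against 25.6, 24.5 and 26.9 FPKM (log2 fold change -0.31, SE 0.0796, limma adjusted p = 0.0193), a call lost in 3 of the 6 fits that leave out a library and with the replicate block, with adjusted p up to 0.0756. It overlaps Mpv17 on the same strand, and Mpv17 was at 10.1, 8.76 and 10.4 FPKM against 14.2, 15.4 and 12.1 FPKM in the same libraries (log2 fold change -0.47, limma adjusted p = 0.0115). The part of shared reads in these falls was not tested. Gtf3c3 was below scramble in every library of both knockdowns, at 13.4, 13.2 and 13.3 FPKM in siEXOSC3 and 13.1, 13.1 and 13.0 FPKM in siDDX1 against 16.9, 14.3 and 13.9 FPKM in the first table, without passing in either (limma adjusted p = 0.181 and 0.210). Gtf3c6, the highest of the class, was at 24.8, 33.7 and 20.9 FPKM in siEXOSC3 and 24.2, 28.5 and 36.7 FPKM in siDDX1, overlapping scramble in both. Its siEXOSC3 log2 fold change of -0.22 became -0.41 without siEXOSC3 replicate 2 (limma adjusted p = 0.00929) and -0.07 without replicate 3 (limma adjusted p = 0.672). Gtf3a, which binds the 5S rRNA genes, and Gtf3c1, the largest subunit of TFIIIC, passed in neither.

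The class medians were also taken library by library, with each knockdown library set against the scramble mean. Over all 49 genes tested they were -0.16, -0.08 and -0.28 on the log2 scale in siEXOSC3 replicates 1, 2 and 3, whereas scramble libraries set against the other 2 lay between -0.03 and 0.03. All genes tested had medians of -0.01, -0.01 and -0.02 in the same siEXOSC3 libraries. Polymerase I was lowest, at -0.38, -0.22 and -0.53, followed by the general factors of polymerase III at -0.29, -0.16 and -0.43. For polymerase II subunits the medians were -0.17, -0.11 and -0.24, and for its general factors -0.09, -0.02 and -0.31. Polymerase III subunits were at -0.17, -0.07 and -0.22. Replicate 2 of both these last classes lay within its scramble range, which was -0.03 to 0.06 and -0.08 to 0.09. Replicate 2 was the nearest to scramble in most classes and replicate 3 the farthest. In siDDX1 the medians over all 50 genes were 0.02, 0.0002 and -0.02. The general factors of polymerase III were at -0.16, -0.17 and -0.03, so that replicate 3 lay within the scramble range.

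**Figure D5:**
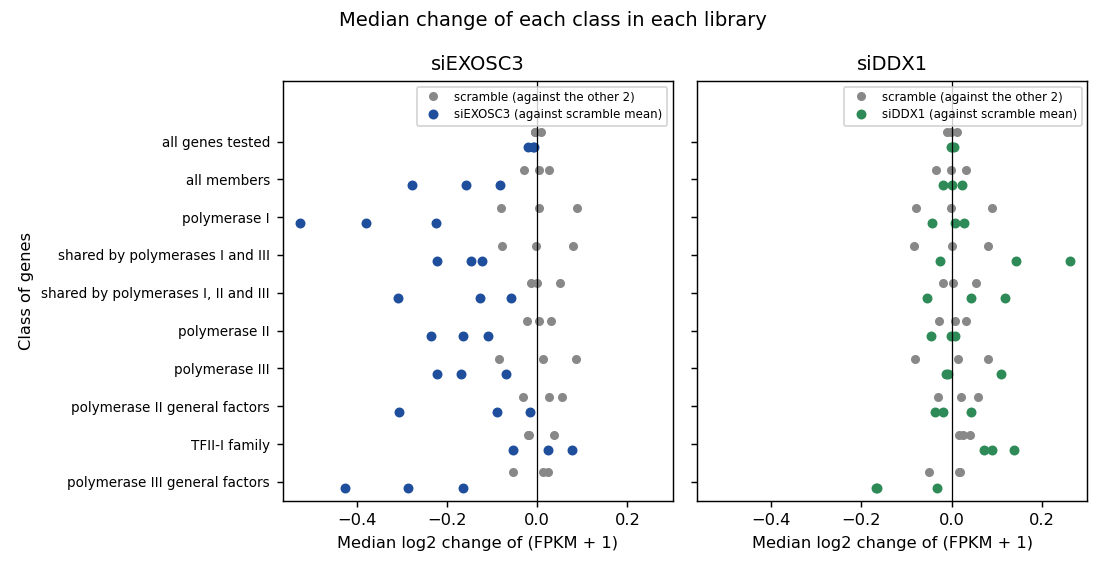
Median log2 change of (FPKM + 1) per library (horizontal axis) for each class, with knockdown libraries set against the scramble mean and scramble libraries (gray) against the mean of the other 2. In siEXOSC3 all 3 libraries lie below 0 for every class but the TFII-I family, and polymerase I reaches -0.53.

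Other parts of the same machinery, which carry other names, were described from a separate list of 43 genes, of which 42 were tested. In siEXOSC3, 12 fell (28.6%), 1 rose (2.38%) and the median log2 fold change was -0.18, against 15.7% of all genes tested called down and 16.7% called up. In siDDX1, 3 fell (7.14%), none rose in limma and the median was -0.03, with 5.03% of all genes called down and 5.61% up, so the falls are near the background. At an unadjusted limma p under 0.05, 2 were higher (4.76%) and 20 lower (47.6%) in siEXOSC3, where all genes gave 22% and 23.4%, and 1 was higher (2.38%) and 7 were lower (16.7%) in siDDX1, where all genes gave 15.1% and 15%. By polymerase, 4 of 9 polymerase I factors, 5 of 23 polymerase II factors and 3 of 10 polymerase III factors fell in siEXOSC3. Taf7, a subunit of TFIID, the factor that recognizes polymerase II promoters, was at 6.14, 7.33 and 6.55 FPKM in siEXOSC3 against 10.8, 10.2 and 9.94 FPKM, and at 5.93, 6.40 and 7.02 FPKM in siDDX1 against 10.8, 10.1 and 9.82 FPKM. Its log2 fold changes were -0.56 (SE 0.0842, limma adjusted p = 0.00315) and -0.59 (SE 0.0821, limma adjusted p = 0.00751), and neither knockdown overlapped scramble. Brf2, the TFIIIB subunit used at U6-type promoters, was at 9.15, 10.1 and 9.56 FPKM in siEXOSC3 and 9.64, 8.66 and 9.24 FPKM in siDDX1 against 11.6, 14.2 and 11.6 FPKM in the first table, and it fell in both (limma adjusted p = 0.0260 and 0.0373). The SNAPc complex, which serves the small nuclear RNA genes of polymerases II and III, had falls of Snapc4 (log2 fold change -0.42) and Snapc2 (-0.37) in siEXOSC3 and of Snapc5 (-0.39) in siDDX1. Taf2 of TFIID (-0.38) and Taf1d (-0.36), of the polymerase I selectivity factor, completed the 5 largest falls past the threshold in siEXOSC3. Ccnh, a cyclin of TFIIH, was the gene that rose (log2 fold change 0.20, limma adjusted p = 0.0405). TBP, which all polymerases use, was at 26.1 ± 1.98 FPKM in siEXOSC3 against 28.6 ± 1.85 FPKM and passed in neither table.

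Few products of polymerases I and III could be followed. Of 12 such transcripts looked for by symbol, 6 were in the tables, and Rn45s, Bc1 and Rn4.5s were listed at 0 in every library. An exact 0 in these tables can be a failed estimate, and Taf1a, of the polymerase I selectivity factor, was also listed at 0 throughout. Rmrp, the RNA of the RNase MRP complex, was at 121111, 106517 and 70793 FPKM in siEXOSC3 against 96630, 107756 and 88719 FPKM, and Rpph1, the RNA of RNase P, at 3257, 2691 and 2955 FPKM against 3187, 3118 and 2573 FPKM. Both overlapped scramble in both knockdowns, and Vaultrc5, a vault RNA at 6.97 ± 2.81 FPKM in scramble, passed in neither. For transcripts this short, FPKM depends strongly on the length used, so these levels are not compared with those of the subunits.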

How the data were processed

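N2A cells received scramble siRNA or siRNA against EXOSC3 or DDX1, with 1 library from each of 3 cultures per group. The authors aligned reads to mm9 with TopHat2 2.1.0, sorted them with SAMtools, and deposited the FPKM values that Cuffdiff 2.2.1 gave for each knockdown with scramble, in a pair of tables. The annotation and normalization used in Cuffdiff are not given in the sources used here. The tables were scaled separately, by a factor of 1.01 in each scramble library, so tests stayed within a table. FPKM are not counts and no count model was used.

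Here, log2(FPKM + 1) of genes with a mean of at least 1 FPKM over the 6 libraries was tested with limma 3.58.1 in R 4.3.3 (intensity trend, two-sided, Benjamini-Hochberg adjustment over all genes of the table, threshold 0.05), after a check on simulated data. Fold changes refer to this scale and understate changes of low genes. With 3 libraries against 3, exact permutation p cannot go below 0.1. Genes and lists were chosen with earlier results of these data known. Genes named were those past the threshold, the catalytic pairs, the lowest and highest of each class, those apart from scramble in both knockdowns, and the 5 largest changes among other factors called. Polr3g, as the alternative form of Polr3gl, and Crcp, Gtf2e1, Polr2e, Polr2k, Gtf3a, Gtf3c1, Ccnh and Tbp fall outside this rule and were named after their values were seen. 1 gene is not reported here. Gene positions were read from GENCODE vM1 (NCBIM37), which held 50 of the 51 symbols, 6 of them overlapping a gene on the same strand and 20 on the opposite one. Among genes past the threshold, Polr1a, Polr3b, Polr3gl, Gtf2h1, Gtf3c5, Gtf2i and Gtf2ird1 overlap an opposite-strand gene for which no FPKM is given. Promoter windows came from RefSeq (GRCm38.p6). Alternatives changed the pseudocount, filter, scaling, trend, block, threshold and libraries. Depth limits could not be derived, since absolute counts are unknown.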

Additional observations from a re-analysis of the deposited data

Results flagged for a closer look

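The genes Gtf2i, Polr3b and Polr3d were below scramble in every siEXOSC3 library and above it in every siDDX1 library, and the difference between the knockdowns was not tested. The log2 fold changes in siEXOSC3 and siDDX1 were -0.20 and 0.19 for Gtf2i, -0.14 and 0.29 for Polr3b, and -0.28 and 0.10 for Polr3d. These are 6.12% of the 49 genes tested in both, beside 1.29% of all genes tested in both. None of the 49 showed the opposite arrangement, beside 1.51% of all genes. With 3 libraries per group, single values were not screened for outliers.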

How the results depend on the processing

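None of the Polr and Gtf genes past the threshold, nor Exosc3 or Ddx1, changed direction under the alternatives run. Genes that did not pass could change sign, as Polr1d did in siEXOSC3 (-0.01, and 0.03 without siEXOSC3 replicate 3) and Polr2i (0.01, and -0.08 without siEXOSC3 replicate 1). Other factors and markers were fitted with 1 setting. At the stricter adjusted p of 0.01, siEXOSC3 kept 4 falls and 0 rises of these genes (1349 genes in all) and siDDX1 0 and 0 (183 in all). Without a filter on low FPKM 717 genes passed in siDDX1, against 1182. Median centering moved the siDDX1 median to 0.028. Leaving out each library in turn gave, in siEXOSC3, 0 to 3 rises, 6 to 22 falls and 1610 to 4887 genes in all (3644 with every library), and in siDDX1 0 to 6 rises, 0 to 8 falls and 158 to 3524 genes. The medians then ranged from -0.19 to -0.12 in siEXOSC3 and from -0.02 to 0.01 in siDDX1. Over all alternatives but the threshold, 5 of 19 calls were kept in siEXOSC3 and 0 of 6 in siDDX1, and without the fits that leave out a library 11 and 4. The cause of these losses was not tested.

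The titles number the replicates and do not say whether same-numbered libraries are paired. Deviations of same-numbered libraries from their group means correlated at 0.035, -0.31 and -0.13 in siEXOSC3 and -0.012, 0.38 and 0.37 in siDDX1. With groups of 3, these values cannot settle the pairing. With the replicate block, 1 gene of the set rose and 13 fell in siEXOSC3 (2449 genes in all), and 3 rose and 4 fell in siDDX1 (1893 in all).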
